A study of Mus musculus with 22 samples.

Results

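The insulin-like growth factor (IGF) genes examined here were the ligands Igf1 and Igf2, the receptor Igf1r, and the binding protein genes Igfbp2, Igfbp3, Igfbp4, Igfbp5, Igfbp6 and Igfbp7. They were chosen by symbol, and all 9 were found among the 29367 genes of the count table. They were measured in mRNA precipitated with ribosomes that were tagged to enrich for astrocytes. It came from the optic nerve head (ONH), the unmyelinated start of the nerve behind the eye, or the optic nerve proper (ONP), the myelinated nerve distal to it. Tissue was taken 7 or 30 days after microbeads were injected into one eye to raise intraocular pressure (IOP). There were 4 libraries per region at 7 days and 7 per region at 30 days, giving 22 in all. Every mouse was 3 to 4 months old when studied, carried a hemagglutinin (HA) tag on the ribosomal protein Rpl22 in cells with a history of Cre, and carried the GFAP-Cre transgene, in which a GFAP promoter drives Cre. The labels give the genotype as WT apart from these alleles, and every group received microbeads. One library stands for 4 mice, of which 2 were male and 2 female, and ribosomes were precipitated by the HA tag, so levels are those of ribosome-associated mRNA. Uninjected mice were not analysed here. The study took both regions from the same mice. At 30 days the ONH and ONP libraries of 1 number were taken to share mice, which was inferred from the numbers. This number is used below as the pool number. The 7 day libraries carry the numbers 1, 3, 5 and 6 (ONH) and 1, 2, 5 and 6 (ONP) and could be placed in a region and day but not matched to numbered samples, and which ONH and ONP libraries of that day share mice is not used here.

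IGF1 and IGF2 are secreted growth factors that act through the IGF1 receptor, a tyrosine kinase that feeds the PI3K-AKT and RAS-MAPK pathways. The IGF binding proteins hold the ligands in the extracellular space with an affinity similar to or higher than that of the receptor. They can keep ligand from the receptor or release it when cleaved by a protease. IGFBP7 is a more distant relative with low affinity for the IGFs. In the central nervous system Igf1 is made by microglia and some neurons, Igf2 is abundant in the meninges and choroid plexus, and astrocytes are a known source of several binding proteins.

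Libraries held between 16292489 and 33307092 counts, and 3 counts, taken as the smallest detectable amount, corresponded to 0.0897 to 0.191 CPM, the counts scaled to a common library size. All 9 astrocyte markers, Gfap, Aqp4 and Sox9 among them, had more than 3 counts in every library, with a summed level of 14500 to 33500 CPM. Oligodendrocyte markers were also high, at 13200 to 40400 CPM in the ONH and 25000 to 105000 CPM in the ONP, and all 7 were detected in every library. In each ONP library at 7 days their sum, at 80000 CPM or more, was above that of the astrocyte markers, at 21700 CPM or less. Some libraries of each other group also had the higher sum for oligodendrocyte markers. The 2 libraries of pool 7 at 30 days had the highest summed microglia markers, and ONH libraries 5 and 6 at 7 days had the highest endothelial, mural and photoreceptor sums of the ONH at that time. Results of the IGF genes were also computed without them, and values that moved far are given below. No pair of libraries held identical counts. Nothing states that pools at 1 time and region were handled apart, so p-values are relative to the spread between these pools only. The main fits between regions did not pair ONH and ONP libraries, although the study took both regions from the same mice.

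**Figure D1:**
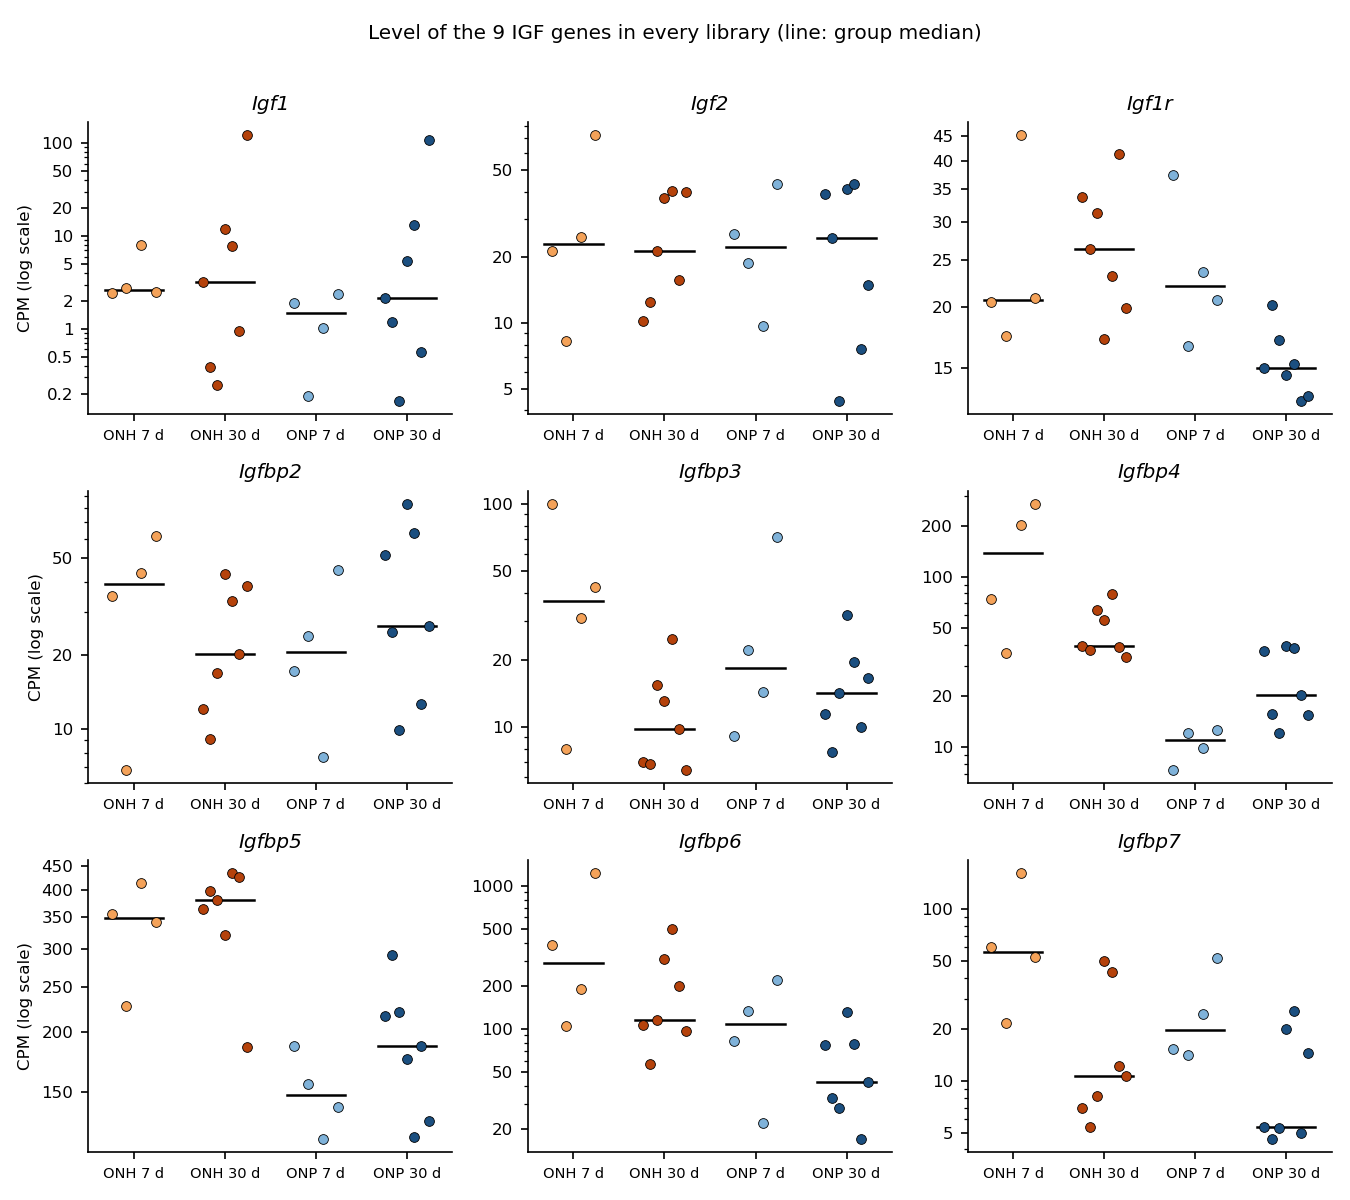
CPM (log scale) of the 9 IGF genes, with 1 point per library, points in the order of the library numbers, and the group median as a line. Igfbp4 and Igfbp5 showed no overlap between the ONH and ONP at 7 days, and Igf1 had 1 library above 100 CPM in each region at 30 days.

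Per length of merged exons, Igfbp6 had the highest mean of the 9 genes in each of the 4 groups. In the ONH its mean was 178 ± 142 CPM per kilobase (SD over 7 libraries) at 30 days and 427 ± 459 (SD over 4) at 7 days. In the ONP it was 52.4 ± 36.1 at 30 days and 103 ± 75.4 at 7 days. At 7 days in the ONH this placed Igfbp6 within the top 0.256% of 29351 genes with a known length. Igfbp5 had rank 2 in 3 groups and rank 3 in the ONH at 7 days, with means of 25 to 59.8 CPM per kilobase. By group mean Igf1 and Igf1r held the last 2 places in each group. At 30 days Igf1r was last, at 1.64 ± 0.504 CPM per kilobase in the ONH and 0.919 ± 0.151 in the ONP. The means of Igf1 there, 2.1 ± 4.48 and 1.87 ± 3.97, were raised by pool 7, at 12.2 and 10.8. In most 30 day libraries of each region Igf1 lay below Igf1r. Igf1 was last at 7 days, at 0.394 ± 0.275 in the ONH and 0.138 ± 0.0970 in the ONP. In the ONH at 7 days the SD of Igfbp6 was larger than its distance to Igfbp7, the next gene in that order, so these neighbours did not differ beyond their spread, here and below taken as a gap between means no larger than the larger SD. The same held for Igfbp7 and Igfbp5, at 61.4 ± 50.4 and 55.8 ± 13.0. This spread is that between libraries and does not use that both genes were measured in the same library. Within each of these 4 libraries Igfbp6 was above Igfbp7, and they were closest in library 5, at 171 against 134 CPM per kilobase.

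The mix of binding protein mRNA was mostly Igfbp6 and Igfbp5 in every library. Of the summed level of the 6 binding protein genes per kilobase, Igfbp6 made up 37.1% to 74.8% (median 55.3%) in the ONH at 30 days and 23.4% to 51.9% (median 40.2%) in the ONP. Igfbp5 made up a median of 25.2% and 24.1% there. At 7 days Igfbp7 made up 29.6% in ONH library 5, above Igfbp5 at 15.2%. In ONP library 5 of that day it made up 28.5%, beside 28% each for Igfbp6 and Igfbp5. Igfbp2 was a small share in the ONH at 30 days, with a median of 3.86%, and a larger one in the ONP, with a median of 15.1%. These shares overlapped, since ONH pool 7 had 13.2% and the lowest ONP library had 6.77%. Igfbp4 made up 3.23% to 10.1% in the ONH and 0.905% to 3.18% in the ONP at 7 days. Binding protein mRNA outweighed ligand mRNA in all libraries. The summed binding protein level was 88.5 to 131 times the summed ligand level in the ONH at 7 days and 28.2 to 54.3 times in the ONP, with no overlap. At 30 days the range was 8.23 to 99.0 times in the ONH and 7.06 to 100 times in the ONP, and both lowest values were those of pool 7. These are ratios of mRNA per length and are given without a test.

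**Figure D2:**
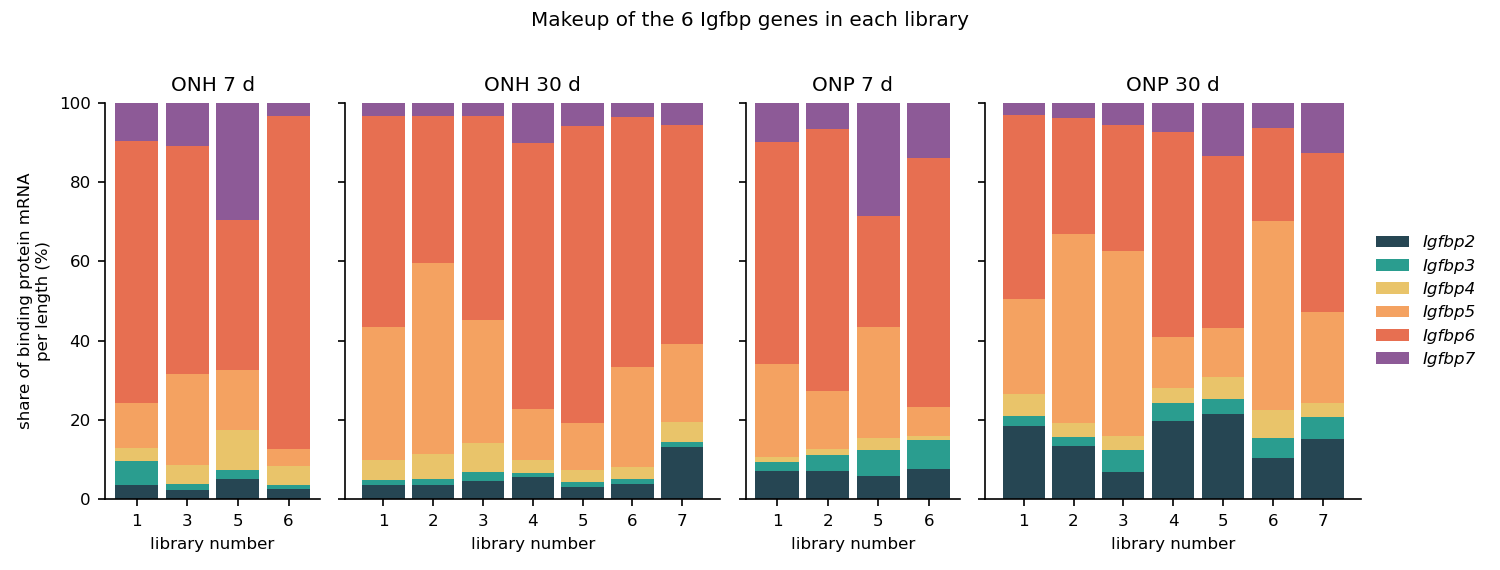
Share of each of the 6 Igfbp genes in their summed CPM per kilobase (percent), 1 bar per library, labelled by library number. Igfbp6 (orange-red) and Igfbp5 (light orange) filled most of each bar, and Igfbp2 (dark) had a median of 15.1% in the ONP at 30 days.

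All 9 genes passed the filter on low counts in each comparison, which was made with the quasi-likelihood test of edgeR and adjusted over all genes tested by the method of Benjamini and Hochberg. In the ONH, none of the 9 passed the threshold (adjusted p under 0.05) between 30 and 7 days, where 0% of all genes tested passed. Igfbp3, Igfbp4 and Igfbp7 had an unadjusted p under 0.05. DESeq2 called Igfbp3 and Igfbp4, and limma-voom and limma on the log2 values called 0 of the 9. The shares of all genes at the unadjusted threshold and with DESeq2 are not given here, so these calls are not read as particular to the IGF genes. In the ONP, 2 of 9 passed between 30 and 7 days, beside 17.0% of all genes tested. These were Igfbp4, higher at 30 days as were 7.82% of all genes, and Igf1r, lower as were 9.21%. Between the regions at 30 days, 4 of 9 passed (Igf1r, Igfbp4, Igfbp5 and Igfbp6), beside 41.8% of all genes, and the 4 were higher in the ONH, as were 21.8% of all genes, while 0 of the 9 were lower, beside 20%. At 7 days 2 of 9 passed (Igfbp4 and Igfbp5), both higher in the ONH, beside 13.2% of all genes in either direction, 6.34% in that direction and 6.81% in the other. The difference between the regions in the 30 vs 7 day change passed for 1 of 9, Igfbp4, beside 0.543% of all genes. With 4 of 9, the IGF genes at 30 days were called about as often as genes in general. The libraries of the 2 groups did not overlap for 3 of the 9 genes at 7 days (Igf1, Igfbp4 and Igfbp5, all higher in the ONH), beside 21.7% of all genes, 9.90% with the ONH higher and 11.8% with it lower. None of the 9 was without overlap in the other comparisons of groups. Beside this, 2.28% of all genes were in the ONH over time (1.76% higher and 0.530% lower at 30 days), 12% in the ONP over time (6.2% higher and 5.79% lower) and 16.4% between regions at 30 days (9.27% higher and 7.08% lower in the ONH). The median log2FC over the 9 genes was -0.59 (ONH, 30 vs 7 days), 0.01 (ONP), 0.77 (ONH vs ONP, 30 days) and 1.17 (7 days), beside medians of -0.019, -0.008, -0.005 and 0.068 over all genes tested.

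**Figure D3:**
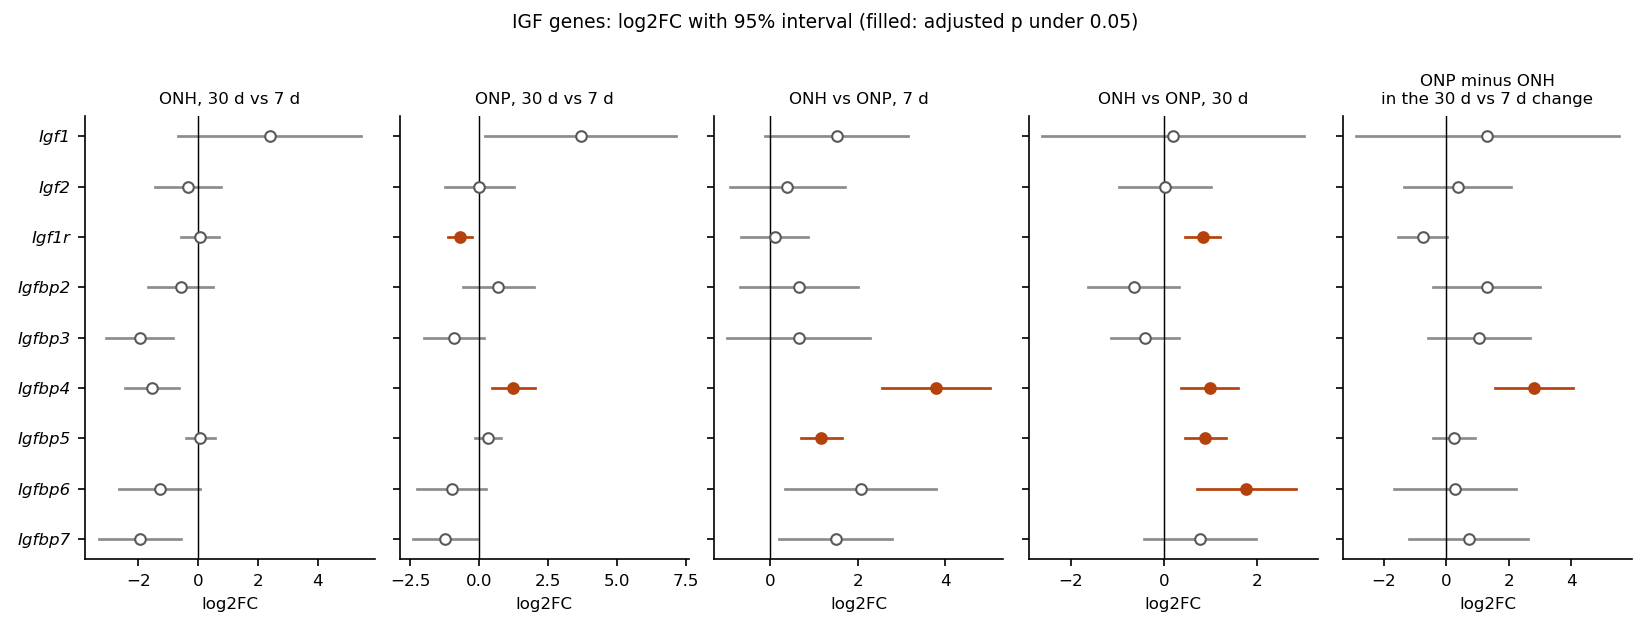
Log2FC of each IGF gene with its 95% confidence interval in 5 comparisons, where filled points passed an adjusted p of 0.05 and each panel has its own axis. The interval of Igfbp4 at 7 days (2.56 to 5.03) lies apart from 0, while those of Igf1 span several log2 units.

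The gene positions below are those of GENCODE M21 on GRCm38 (mm10), and each spans exons and introns of the gene named. Igf1 (ENSMUSG00000020053, chr10:87858265-87937042, plus strand), the ligand made in response to growth hormone in many tissues, was low in most libraries and very high in a single pool. The 7 day levels were 2.42, 2.75, 7.98 and 2.47 CPM in ONH libraries 1, 3, 5 and 6, and at 1.90, 0.191, 1.03 and 2.36 CPM in ONP libraries 1, 2, 5 and 6. By 30 days it ran from 0.251 to 121 CPM (median 3.23) in the ONH and from 0.167 to 107 CPM (median 2.14) in the ONP. The 4 ONH values at 7 days lay above all 4 ONP values, while at 30 days the groups overlapped from end to end. The highest value in each region at 30 days belonged to pool 7, and the next highest were 12 CPM in the ONH (pool 4) and 13.2 CPM in the ONP (pool 5). The lowest values, 0.167 and 0.191 CPM, were 3 counts each. Log2FC at 7 days was 1.52 (SE 0.74, adjusted p = 0.203), or 0.89 without ONH library 5, and non-overlap of this kind, with the ONH higher, was found in 9.90% of all genes tested. From 7 to 30 days log2FC was 2.40 in the ONH (95% confidence interval -0.67 to 5.46, adjusted p = 0.46) and 3.69 in the ONP (0.23 to 7.14, adjusted p = 0.129). DESeq2 called the change in the ONP (adjusted p = 0.0375). Without pool 7 the edgeR values were 0.06 and 1.43 (adjusted p = 0.983 and 0.355). The group means followed the order ONH at 30 days (20.8 ± 44.3 CPM), ONP at 30 days (18.5 ± 39.3), ONH at 7 days (3.91 ± 2.72) and ONP at 7 days (1.37 ± 0.961). Neighbours in this order did not differ beyond their spread.

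The 2 libraries highest in Igf1 were also the highest in microglia markers. All 8 of these markers, such as Cx3cr1, P2ry12 and Csf1r, had more than 3 counts in every library, and none was at 0. Their summed level was 228 to 5320 CPM in the ONH at 30 days, 292 to 5250 in the ONP at 30 days, 230 to 2520 in the ONH at 7 days and 1970 to 3250 in the ONP at 7 days. Pool 7 had the 5320 and the 5250. ONP library 5 at 30 days had 4320 CPM of microglia markers and 13.2 CPM of Igf1, the next highest level in the ONP after pool 7. The ONP libraries at 7 days had sums of 1970 CPM or more and no more than 2.36 CPM of Igf1. Over the 22 libraries, Pearson r of Igf1 with the microglia sum, both as log2 values, was 0.657. It was 0.843 with each group's mean removed. With the oligodendrocyte sum these values were 0.179 and 0.730, and none of them carries a p. The part of microglia in the level of Igf1 was not tested. In bulk libraries a change in the number of cells and a change in mRNA per cell cannot be told apart. Pool 7 of the ONH also held 220 CPM of the pituitary hormone genes Gh, Prl and Pomc, against 29.7 CPM or less in every other library.

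**Figure D4:**
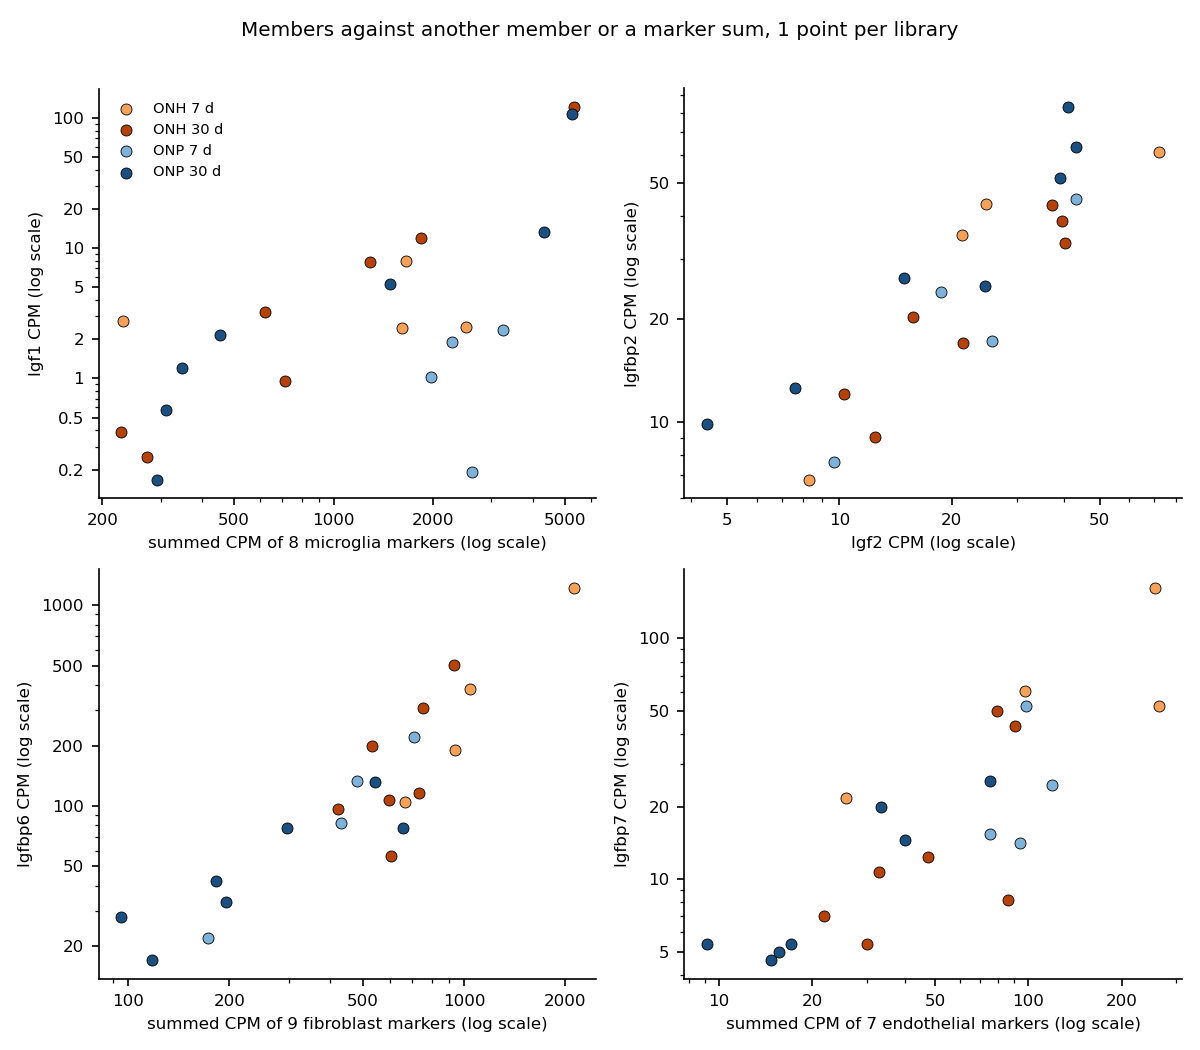
CPM of Igf1, Igfbp2, Igfbp6 and Igfbp7 (y axes, log scale) against the summed CPM of microglia markers, the CPM of Igf2, and the summed CPM of fibroblast or endothelial markers (x axes, log scale), 1 point per library. The panels were chosen after the values were seen. The 2 libraries at the top right of the Igf1 panel are those of pool 7 at 30 days.

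By the profile over the 22 libraries (Pearson r of log2 CPM, 16748 genes searched), the genes most like Igf1 were Dhrs3 (r = 0.873), an enzyme of retinal metabolism, Spp1 (r = 0.865), the secreted protein osteopontin, and Syngr1 (r = 0.855), a synaptic vesicle protein. With each group's mean removed the values were 0.871, 0.877 and 0.900. Spp1 reached 1220 CPM in the ONH and 1760 CPM in the ONP at 30 days. These coefficients, and those given below, describe libraries that share their preparation and depth, and carry no p.

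Igf2 (ENSMUSG00000048583, chr7:142650766-142666816, minus strand), a ligand that also binds the IGF2 receptor, did not pass the threshold in any comparison. Its levels at 7 days were 21.4, 8.31, 24.7 and 72.3 CPM in ONH libraries 1, 3, 5 and 6 and at 25.7, 18.8, 9.68 and 43.1 CPM in ONP libraries 1, 2, 5 and 6. The range at 30 days went from 10.3 to 40.4 CPM (median 21.5) in the ONH and from 4.41 to 43.2 CPM (median 24.6) in the ONP. The 4 groups overlapped, and library 6 was the highest in each region at 7 days. The group means, 24.3 to 31.7 CPM, lay closer together than the smallest SD of 13.4 CPM. Log2FC was -0.34 (SE 0.52) in the ONH and 0.01 (SE 0.58) in the ONP from 7 to 30 days, and 0.02 (SE 0.47) and 0.39 (SE 0.60) for the ONH vs the ONP at 30 and 7 days. In these 4 comparisons its 95% confidence intervals reached from -1.46 to 1.71, so sizeable changes in either direction were within them. Igf2 shares 3596 exon bases with Gm49394 on its own strand and 98 with the antisense gene Igf2os. The first held at most 1 count in any library and the second at most 5, so reads split to these annotations were few.

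Igf2 and Igfbp2 were each other's closest match over the libraries, with r = 0.880, or 0.930 with the group means removed. The next genes were Mrc2, a collagen receptor (r = 0.85), and Itgbl1 (r = 0.838) for Igf2, and Itgbl1 (r = 0.869) and Cdh1, the adhesion protein E-cadherin (r = 0.862), for Igfbp2. With the group means removed these were 0.864 and 0.890 for Igf2, and 0.920 and 0.875 for Igfbp2. Among the 36 pairs of the 9 genes, r ran from -0.203 (Igf1r with Igfbp2) to 0.880 (Igf2 with Igfbp2).

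Igf1r (ENSMUSG00000005533, chr7:67952827-68233668, plus strand), the receptor, was lower in the ONP at 30 days than in the other groups. Its 30 day levels ran from 12.8 to 20.2 CPM (median 15.0) in the ONP and from 17.2 to 41.4 CPM (median 26.4) in the ONH. In the 7 day libraries it was at 20.5, 17.4, 45.2 and 20.9 CPM in ONH libraries 1, 3, 5 and 6 and at 37.5, 16.6, 23.6 and 20.7 CPM in ONP libraries 1, 2, 5 and 6. Of the 7 ONH libraries at 30 days, 5 lay above all 7 ONP libraries, and ONH pools 4 and 7 lay within their range. The ONH was 1.77-fold above the ONP at 30 days (log2FC = 0.83, SE 0.18, adjusted p = 0.00175). Within the ONP it was 1.63-fold lower at 30 than at 7 days (log2FC = -0.70, SE 0.20, adjusted p = 0.0327), and 5 of 7 libraries at 30 days lay below all 4 at 7 days. Oligodendrocyte markers were also lower in the ONP at 30 days. Of these 7 markers 6 passed, with a median log2FC of -0.89, and their summed level was 80000 to 105000 CPM at 7 days and 25000 to 82000 CPM at 30 days. None was at 0. For the ONH vs the ONP at 30 days, all 7 markers had a log2FC below 0 (median -0.98), while Igf1r was higher in the ONH. Pearson r of Igf1r with the oligodendrocyte sum over the 22 libraries was -0.435, or -0.456 with the group means removed. The part of oligodendrocytes in the level of Igf1r was not tested. The call in the ONP was lost without any of 7 libraries (pools 1, 4, 6 and 7 at 30 days and libraries 1, 5 and 6 at 7 days), and without library 1 at 7 days log2FC was -0.40 (adjusted p = 0.132). It was also lost with scaling by library size only (adjusted p = 0.0614), with no filter beyond 1 count (0.0522) and with all 4 groups in one fit (0.12). The regions at 7 days differed by a log2FC of 0.10 (SE 0.35, adjusted p = 0.88), and the ONH at 30 vs 7 days by 0.06 (SE 0.29, adjusted p = 0.944). The difference between the regions in the change over time was -0.76 (SE 0.38, adjusted p = 0.413), so the change in the ONP was not shown to differ from that in the ONH. Group means followed the order ONH at 30 days (27.6 ± 8.46 CPM), ONH at 7 days (26 ± 12.9), ONP at 7 days (24.6 ± 9.07) and ONP at 30 days (15.4 ± 2.54), and the first 3 did not differ beyond their spread. The most similar profiles were those of Zcchc14 (r = 0.896), Dlg5 (r = 0.849), a scaffold protein of cell junctions, and Ptch1 (r = 0.831), the hedgehog receptor. With the group means removed their r was 0.821, 0.768 and 0.796.

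Igfbp4 and Igfbp5 were the 2 genes past the threshold in both region comparisons, and the sequence around their start sites is shown for that reason. Each window covers 250 bases before and 50 after the start, from RefSeq on GRCm38.p6, 5′ to 3′ on the gene's strand. Capitals mark a match to TATAAA, 1 of 6 motifs searched on both strands.

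Igfbp4, chr11:99040994-99041293, plus strand: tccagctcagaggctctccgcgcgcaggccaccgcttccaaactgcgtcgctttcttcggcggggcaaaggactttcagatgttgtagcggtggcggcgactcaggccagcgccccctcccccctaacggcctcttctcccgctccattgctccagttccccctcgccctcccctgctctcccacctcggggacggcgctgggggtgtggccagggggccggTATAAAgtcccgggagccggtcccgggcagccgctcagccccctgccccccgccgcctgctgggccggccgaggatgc
Igfbp5, chr1:72874816-72875115, minus strand: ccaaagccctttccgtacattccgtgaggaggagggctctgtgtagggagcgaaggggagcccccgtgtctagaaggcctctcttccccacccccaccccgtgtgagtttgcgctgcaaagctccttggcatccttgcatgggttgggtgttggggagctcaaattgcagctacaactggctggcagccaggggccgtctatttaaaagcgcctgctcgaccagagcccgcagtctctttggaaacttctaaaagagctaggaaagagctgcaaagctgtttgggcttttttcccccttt

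The Igfbp4 window held 71.3% G and C and the Igfbp5 window 56.3%, beside a median of 52.7% over 32817 promoter windows of this kind. TATAAA was found once, in the Igfbp4 window, from base 223 to base 228, which is 28 bases before the start. It was found in 13.6% of all windows. The other motifs were GGGCGG (35.6% of all windows), CCAAT (37.4%), CACGTG (7.15%), GTAAACA (3.65%) and TTCNNNGAA (8.29%), and neither window held a match to them.

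Igfbp4 (ENSMUSG00000017493, chr11:99041244-99054392, plus strand), a binding protein that is cleaved by the protease PAPP-A, showed the largest region difference of the 9 genes at 7 days, while at 30 days that of Igfbp6 was larger. At 7 days it was at 74.5, 35.9, 203 and 267 CPM in ONH libraries 1, 3, 5 and 6 and at 7.35, 12.2, 9.97 and 12.6 CPM in ONP libraries 1, 2, 5 and 6. In the 30 day libraries it ran from 34.1 to 79.9 CPM (median 39.6) in the ONH and from 12.1 to 39.3 CPM (median 20.2) in the ONP. The lowest ONH library at 7 days lay above the highest ONP library of that day, whereas at 30 days 4 of 7 ONH libraries lay above all ONP libraries and the groups overlapped. The ONH was 13.9-fold above the ONP at 7 days (log2FC = 3.8, SE 0.56, 95% confidence interval 2.56 to 5.03, adjusted p = 0.00174) and 1.97-fold above it at 30 days (log2FC = 0.98, SE 0.29, adjusted p = 0.0138). Without ONH libraries 5 and 6 log2FC at 7 days was 2.38 (adjusted p = 0.00175). These 2 libraries also had the highest endothelial sums of their group (256 and 265 CPM, against 97.4 and 25.7), and their photoreceptor sums were 1050 and 5150 CPM, against 140 and 137.

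The change of Igfbp4 over time differed between the regions. In the ONP it was 2.37-fold higher at 30 than at 7 days (log2FC = 1.24, SE 0.36, adjusted p = 0.0341), and 6 of 7 libraries at 30 days lay above all 4 at 7 days. This call was lost without any of 6 libraries (pools 1 and 4 at 30 days and each of the 4 at 7 days), with log2FC between 1.10 and 1.36, and also with limma-voom (adjusted p = 0.07) and with all 4 groups in one fit (0.0796). In the ONH log2FC from 7 to 30 days was -1.56 (SE 0.42, adjusted p = 0.189, with DESeq2 0.026), and without libraries 5 and 6 at 7 days it was -0.17 (adjusted p = 0.832). The difference between the regions in this change was 2.80 (SE 0.60, 95% confidence interval 1.56 to 4.05, adjusted p = 0.0329). It missed the threshold with the pool as a replicate block by duplicateCorrelation (2.29, adjusted p = 0.128), with limma-voom (2.23, adjusted p = 0.152) and with limma on the log2 values (2.27), and was 1.42 (adjusted p = 0.137) without ONH libraries 5 and 6 at 7 days. It also missed the threshold, at 2.35 to 2.95, without any of 10 single libraries, which were ONH pools 2 and 6 and ONP pools 1, 4 and 6 at 30 days, ONH library 6 and each ONP library at 7 days. Group means followed the order ONH at 7 days (145 ± 108 CPM), ONH at 30 days (50 ± 17.2), ONP at 30 days (25.4 ± 12.1) and ONP at 7 days (10.5 ± 2.39), and the first 2 did not differ beyond their spread. The profiles most like that of Igfbp4 were those of Cxcl12, a chemokine (r = 0.919), Mfap2, a microfibril protein (r = 0.897), and Penk, the enkephalin precursor (r = 0.892). Removing the group means gave 0.842, 0.822 and 0.698.

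Igfbp5 (ENSMUSG00000026185, chr1:72857932-72874884, minus strand), a binding protein that adheres to the extracellular matrix, was higher in the ONH at both times and was the least variable of the 6. At 7 days it was at 356, 228, 414 and 342 CPM in ONH libraries 1, 3, 5 and 6 and at 187, 156, 119 and 139 CPM in ONP libraries 1, 2, 5 and 6. Values at 30 days ran from 186 to 434 CPM (median 382) in the ONH and from 120 to 292 CPM (median 187) in the ONP. At 7 days the groups did not overlap, and at 30 days 6 of 7 ONH libraries lay above all ONP libraries, the exception being pool 7 at 186 CPM. The ONH was 2.26-fold above the ONP at 7 days (log2FC = 1.17, SE 0.21, adjusted p = 0.00486) and 1.86-fold at 30 days (log2FC = 0.89, SE 0.21, adjusted p = 0.00265). From 7 to 30 days log2FC was 0.07 in the ONH (95% confidence interval -0.40 to 0.55) and 0.32 in the ONP (-0.16 to 0.80), neither of which passed the test. The means were 359 ± 85.3 and 335 ± 77.9 CPM in the ONH at 30 and 7 days and 192 ± 58.9 and 150 ± 28.7 CPM in the ONP, so the order followed the region, and the 2 times of a region did not differ beyond their spread. Profiles most like it were those of Fkbp7 (r = 0.907), a folding enzyme of the endoplasmic reticulum, Gsta4 (r = 0.903), a glutathione transferase, and Slc15a2 (r = 0.901), a peptide transporter. After removal of the group means r was 0.723, 0.733 and 0.784. Igfbp5 and Igfbp2 are neighbours on chromosome 1, 5457 bases apart and pointing toward each other, and their r was -0.050.

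Igfbp6 (ENSMUSG00000023046, chr15:102144362-102149511, plus strand), which prefers IGF2 over IGF1, had the highest group means per kilobase and varied widely between pools. By CPM the mean of Igfbp5 was higher in every group except the ONH at 7 days. At 7 days Igfbp6 was at 384, 105, 190 and 1220 CPM in ONH libraries 1, 3, 5 and 6. In ONP libraries 1, 2, 5 and 6 it was at 82.3, 133, 22.1 and 220 CPM. After 30 days it ran from 56.6 to 502 CPM (median 116) in the ONH and from 17.0 to 132 CPM (median 42.3) in the ONP. At 30 days 3 of 7 ONH libraries lay above all ONP libraries, and at 7 days 2 of 4 did. The ONH was 3.39-fold above the ONP at 30 days (log2FC = 1.76, SE 0.50, adjusted p = 0.0105). At 7 days log2FC was 2.07 (SE 0.78, adjusted p = 0.111), and the change over time was -1.29 (SE 0.64) in the ONH and -1.0 (SE 0.58) in the ONP, none of which passed. Both ONH values rested on library 6 at 7 days, without which Igfbp6 had a log2FC of 0.99 between the regions at 7 days and -0.22 over time. Group means followed the order ONH at 7 days (475 ± 510 CPM), ONH at 30 days (198 ± 158), ONP at 7 days (114 ± 83.8) and ONP at 30 days (58.2 ± 40.2), and no pair of neighbours differed beyond its spread. All 9 fibroblast markers, such as Col1a2 and Foxc1, had more than 3 counts in every library and none was at 0. Their summed level was 666 to 2120 CPM in the ONH and 173 to 708 CPM in the ONP at 7 days, and 422 to 930 and 95.3 to 659 CPM at 30 days. The highest sum, 2120 CPM, was in ONH library 6 at 7 days, which had 1220 CPM of Igfbp6. At 30 days 2 of the 9 passed the region test, beside 41.8% of all genes. These were Col1a2 (log2FC = 2.44, adjusted p = 2e-05) and Foxc1 (1.54), both higher in the ONH. Of the 9 markers 5 had a log2FC above 0 and 4 below it, with a median of 0.17, and Col1a1 (-0.79), Ogn (-0.78) and Slc22a6 (-1.76) were among the latter without passing. Col1a2 alone, at a mean of 444 CPM in the ONH and 82.1 CPM in the ONP, made up most of the ONH sum. The part of fibroblasts in the level of Igfbp6 was not tested. Wnt6 had the most similar profile (r = 0.963, or 0.961 with the group means removed), ahead of Gstm2, a glutathione transferase (r = 0.895), and Kcnj13, an inward rectifier potassium channel (r = 0.892). For the last 2, r was 0.895 and 0.814 with the group means removed.

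Igfbp2 (ENSMUSG00000039323, chr1:72824503-72852474, plus strand), the main binding protein of cerebrospinal fluid, did not pass the test in any comparison. At 7 days it was at 35.1, 6.79, 43.4 and 61.4 CPM in ONH libraries 1, 3, 5 and 6 and at 17.3, 23.9, 7.67 and 44.7 CPM in ONP libraries 1, 2, 5 and 6. Its levels at 30 days ran from 9.06 to 43.1 CPM (median 20.2) in the ONH and from 9.88 to 83.0 CPM (median 26.3) in the ONP. The groups overlapped throughout. Log2FC for the ONH vs the ONP was -0.65 (SE 0.46, adjusted p = 0.278) at 30 days and 0.66 (SE 0.61, adjusted p = 0.516) at 7 days, and the difference in the change over time was 1.29 (SE 0.83, adjusted p = 0.556). Group means ran from 23.4 ± 15.7 CPM (ONP, 7 days) through 24.7 ± 13.4 (ONH, 30 days) and 36.7 ± 22.7 (ONH, 7 days) to 38.8 ± 27.7 (ONP, 30 days), with no neighbours apart beyond their spread.

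Igfbp3 (ENSMUSG00000020427, chr11:7206086-7213923, minus strand), the main carrier of IGFs in blood, and Igfbp7 had their highest libraries at 7 days. Igfbp3 was at 99.9, 7.98, 30.9 and 42.7 CPM in ONH libraries 1, 3, 5 and 6 and at 9.13, 22.3, 14.4 and 71.1 CPM in ONP libraries 1, 2, 5 and 6. The 30 day libraries ran from 6.42 to 24.9 CPM (median 9.77) in the ONH and from 7.76 to 31.9 CPM (median 14.2) in the ONP. In the ONH, library 3 at 7 days lay among the 30 day libraries and the other 3 lay above them. Log2FC from 7 to 30 days was -1.95 in the ONH (SE 0.52, 95% confidence interval -3.08 to -0.83, adjusted p = 0.189) and -0.90 in the ONP (SE 0.50, adjusted p = 0.231). With DESeq2 the adjusted p in the ONH was 0.0205. Group means followed the order ONH at 7 days (45.4 ± 39.1 CPM), ONP at 7 days (29.2 ± 28.4), ONP at 30 days (16 ± 8.09) and ONH at 30 days (11.9 ± 6.67), with no neighbours apart beyond their spread. Its closest profiles were those of Bgn, a proteoglycan of the matrix (r = 0.804), Cped1 (r = 0.775) and Bmp6 (r = 0.764), a secreted growth factor. These became 0.769, 0.673 and 0.750 without the group means.

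Igfbp7 (ENSMUSG00000036256, chr5:77349240-77408041, minus strand) was at 60.4, 21.8, 162 and 52.4 CPM in ONH libraries 1, 3, 5 and 6 and at 15.4, 14.1, 24.5 and 52.2 CPM in ONP libraries 1, 2, 5 and 6 at 7 days. Among 30 day libraries it ran from 5.39 to 49.7 CPM (median 10.7) in the ONH and from 4.59 to 25.6 CPM (median 5.38) in the ONP. Of the 7 ONH libraries 5 lay below all 4 at 7 days, and pools 4 and 5 lay among them; in the ONP 4 of 7 lay below all 4 at 7 days. Log2FC from 7 to 30 days was -1.95 in the ONH (SE 0.64, adjusted p = 0.236) and -1.24 in the ONP (SE 0.54, adjusted p = 0.131). The latter passed with limma-voom (-1.63, adjusted p = 0.0302). The ONH was above the ONP by 1.5 (SE 0.58, adjusted p = 0.119) at 7 days, where DESeq2 called it (adjusted p = 0.0462), and by 0.77 (SE 0.57, adjusted p = 0.295) at 30 days. Without ONH libraries 5 and 6 the 7 day value was 0.62, and the change over time in the ONH was -1.10. With the pool as a block, the 30 day value was 0.60 and passed the threshold (adjusted p = 0.0345). Means were 74.2 ± 60.9 CPM in the ONH at 7 days, 26.5 ± 17.7 in the ONP at 7 days, 19.5 ± 18.7 in the ONH at 30 days and 11.5 ± 8.61 in the ONP at 30 days, and neighbours in this order did not differ beyond their spread. Endothelial markers such as Pecam1, Cldn5 and Kdr are given beside it. Between 5 and 7 of these 7 markers had more than 3 counts in each ONP library at 30 days and all 7 did in the other groups, and none was at 0. Their summed level was 25.7 to 265 CPM in the ONH and 75.1 to 119 CPM in the ONP at 7 days, and 21.8 to 90.6 and 9.15 to 75.1 CPM at 30 days. From 7 to 30 days all 7 had a log2FC below 0 in the ONP. Of these 4 passed as lower, beside 9.21% of all genes tested, for example Pecam1 (log2FC = -2.70, adjusted p = 0.0134). The part of these cells in the level of Igfbp7 was not tested. Igfbp7 shares 85 exon bases with Polr2b on the opposite strand, which was at 15.9 to 57.6 CPM, and the libraries do not mark strand. The profiles most like that of Igfbp7 were those of Foxq1, a transcription factor (r = 0.929), Cdr2 (r = 0.875) and Bmx, a tyrosine kinase (r = 0.860). Their r with the group means removed was 0.912, 0.837 and 0.757.

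Other genes of the IGF pathway were taken from a list of 45, of which 43 were in the count table, and Igfbp1 and Irs4 were not analysed here. In the ONH none of the 39 tested passed between 30 and 7 days with edgeR, beside 0% of all genes. There 5 had an unadjusted p under 0.05, DESeq2 called 1, and limma-voom called 0. For these last counts the share over all genes is not given, and nothing particular to the pathway is read from them. In the ONP 7 of 36 passed, 2 higher and 5 lower at 30 days, beside 17.0% of all genes. With all 4 groups in one fit 3 pathway genes passed, 1 of them higher, and without ONP library 6 at 7 days 4 did, 0 of them higher. Between the regions 13 of 36 passed at 30 days, 6 higher and 7 lower in the ONH, beside 41.8% of all genes, and 5 of 37 at 7 days, 3 higher and 2 lower, beside 13.2%. At 7 days the number was 3 without any one of ONP libraries 2, 5 and 6, 8 without ONH library 6 and 12 with all 4 groups in one fit. The median log2FC of the list was -0.11, -0.15, 0.12 and -0.03 in these comparisons.

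**Figure D5:**
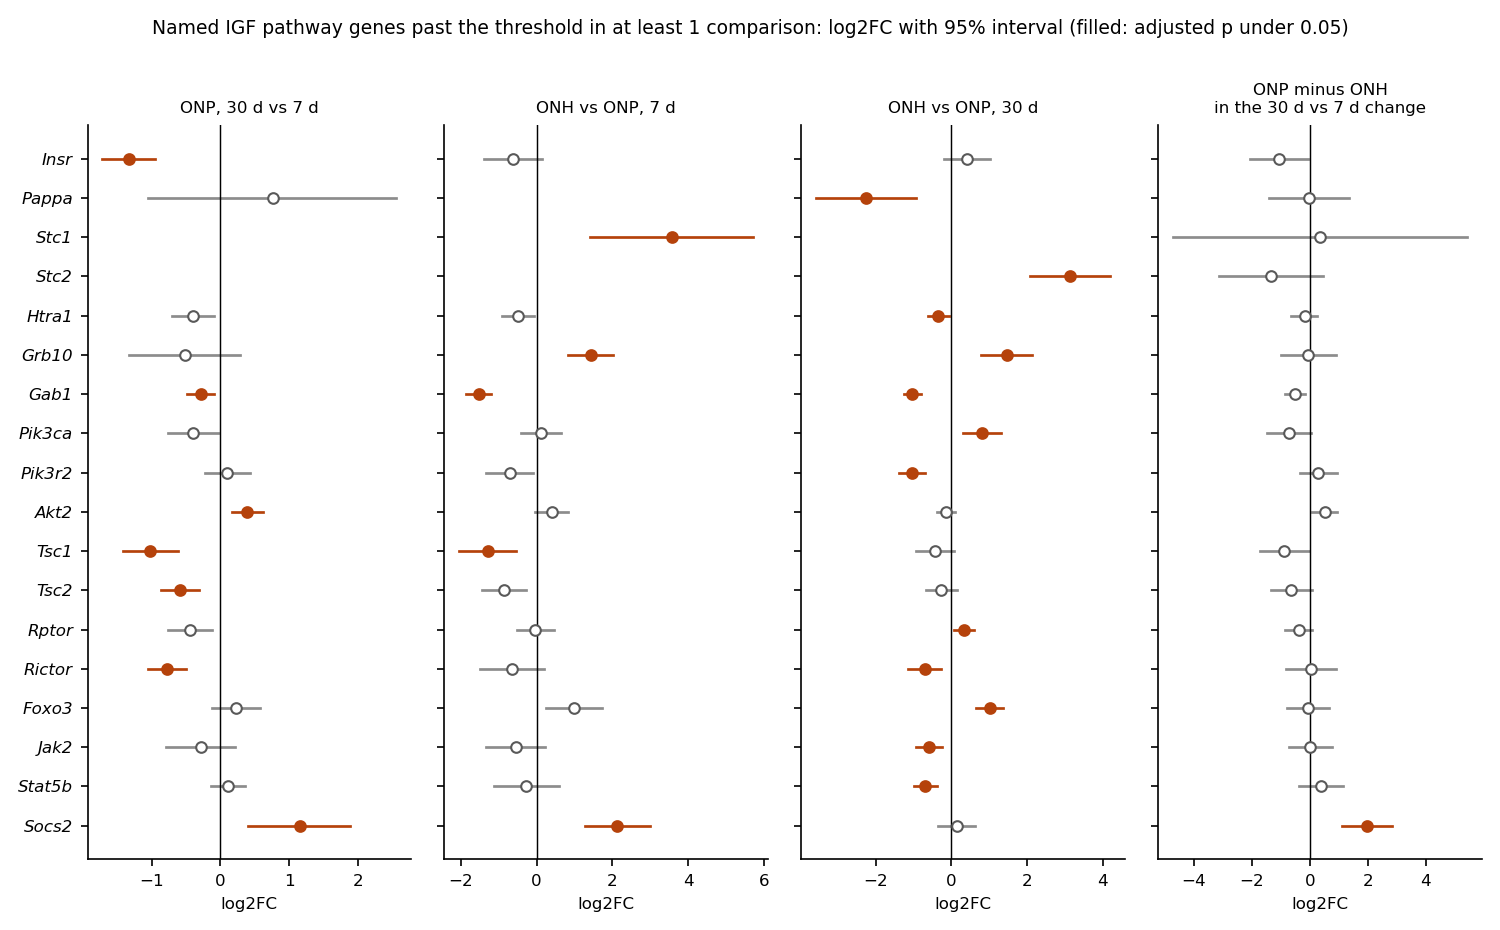
Log2FC with 95% confidence intervals of the named pathway genes, each of which passed the threshold in at least 1 comparison, in the 4 comparisons with any call. Filled points passed an adjusted p of 0.05, a missing point marks a gene below the filter, and each panel has its own axis. Insr, Tsc1 and Rictor lie to the left in the ONP at 30 vs 7 days, and Socs2 passed in 3 of the 4 panels.

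Among receptors, Insr, the insulin receptor, which can also pair with IGF1R, was lower in the ONP at 30 days. It was at 37.2, 52.9, 52.5 and 54.8 CPM in ONP libraries 1, 2, 5 and 6 at 7 days and between 15.0 and 29.7 CPM at 30 days, with no overlap. Log2FC was -1.33 (SE 0.18, adjusted p = 0.000994), and non-overlap with 30 days lower was found in 5.79% of all genes. Igf2r, which clears IGF2, did not pass in any comparison, with means of 9.37 to 17.0 CPM in the 4 groups.

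Of the 5 genes of proteases that release ligand from binding proteins and of their inhibitors, 3 were above the filter in each region comparison. At 30 days all 3 tested passed (Pappa, Stc2 and Htra1), beside 41.8% of all genes. At 7 days 1 of the 3 tested passed (Stc1), beside 13.2% of all genes. Pappa, the protease that cleaves IGFBP4, had a mean of 0.164 CPM in the ONH and 0.811 CPM in the ONP at 30 days, and 6 of 7 ONH libraries lay below all ONP libraries (log2FC = -2.25, SE 0.62, adjusted p = 0.00892). The PAPP-A inhibitor gene Stc2 was higher in the ONH at 30 days, at 0.860 to 3.20 CPM against 0.0487 to 0.414 CPM (log2FC = 3.14, SE 0.50, adjusted p = 0.000176), with no overlap. Stc1, which also inhibits PAPP-A, was at 3.02, 0.777, 3.19 and 5.66 CPM in the ONH and at 0.00, 0.445, 0.451 and 0.15 CPM in the ONP at 7 days (log2FC = 3.57, SE 0.97, adjusted p = 0.0359). Several of these values are only a few counts. Htra1, a protease with wider targets, was 1.26-fold lower in the ONH at 30 days (adjusted p = 0.0447).

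Among adaptors, Grb10, which binds and inhibits the receptors, was higher in the ONH at both times. It was at 12.9 to 15.2 CPM in the 4 ONH libraries and at 4.53 to 6.62 CPM in the 4 ONP libraries at 7 days (log2FC = 1.44, SE 0.27, adjusted p = 0.00596), and log2FC at 30 days was 1.46 (SE 0.32, adjusted p = 0.00193). Gab1, a docking protein of the PI3K pathway, was lower in the ONH, by a log2FC of -1.52 (SE 0.14) at 7 days and -1.03 (SE 0.10) at 30 days, without overlap at either time. In the ONP it was lower at 30 than at 7 days by a log2FC of -0.29 (adjusted p = 0.0493). The insulin receptor substrates Irs1 and Irs2 did not pass in any comparison.

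In the PI3K-AKT and mTOR group, Tsc1 and Tsc2, the restraints on mTOR, and Rictor, a subunit of mTOR complex 2, were lower in the ONP at 30 than at 7 days, by log2FC of -1.02, -0.59 and -0.78, and Akt2 was higher by 0.39. At 30 days Pik3ca (0.80), Rptor (0.33) and Foxo3 (1.01) were higher and Pik3r2 (-1.03) and Rictor (-0.70) were lower in the ONH than in the ONP. Pik3ca and Pik3r2 encode a catalytic and a regulatory subunit of PI3K. At 7 days Tsc1 (-1.29) was lower in the ONH.

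Of the genes that act around the growth hormone receptor, Jak2 (-0.59) and Stat5b (-0.69) were lower in the ONH at 30 days. Socs2, which feeds back on that receptor, was at 13.8, 10.9, 14.4 and 12.5 CPM in the ONH and at 1.29, 4.2, 3.41 and 3.0 CPM in the ONP at 7 days (log2FC = 2.13, SE 0.39, adjusted p = 0.0052). At 30 days it was at 4.46 to 9.73 CPM and 3.12 to 9.35 CPM, and the groups overlapped. It was higher at 30 than at 7 days in the ONP (log2FC = 1.15, SE 0.34, adjusted p = 0.0386). The difference between the regions in the change over time was 1.97 (SE 0.42, adjusted p = 0.0321), and Socs2 was the only one of the 41 pathway genes tested to pass there. It was not past the threshold there without pool 7 at 30 days. Ghr, the receptor itself, did not pass in any comparison. Ghr, Igf2r, Irs1 and Irs2 were named after their values were seen.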

How the data were processed

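Ribosome-associated mRNA was precipitated by the HA tag, made into cDNA with the Smart-Seq HT kit, which does not mark strand, and sequenced. The authors deposited 1 table of expected counts per gene, estimated by Salmon 0.14.2 on Ensembl transcripts and summed to genes (mm10, with STAR 2.6.1d for quality control), and 1 table of these counts after the variance-stabilising transformation of DESeq2 1.34.0 (R 4.1.0), on a log2 scale. The versions are those of the submitters' processing notes. The deposited expected counts were already whole numbers and were used without rounding. Columns were assigned to groups by their names, which match the labels for region and day.

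CPM values used TMM factors over the 22 libraries, and log2 CPM a prior count of 2. Levels per kilobase divide CPM by merged exon bases of GENCODE M21, which matched 29351 of 29367 genes. Each comparison was fitted with edgeR 4.0.16 (quasi-likelihood test, R 4.3.3) on the libraries of its groups after the filter on low counts, with p-values adjusted by the method of Benjamini and Hochberg over all genes tested, two-sided. The biological coefficient of variation was 35.0% to 48.2%. The change over time was compared between regions by an interaction term over the 22 libraries. DESeq2 1.42.0, limma 3.58.1 (voom, and the deposited log2 values), other scalings and filters, and single libraries left out were alternatives, and 2 sets of libraries were left out as an alternative chosen after seeing the data. Of these steps only the main edgeR fit of each comparison was tested on simulated counts with known changes. The other tools, the replicate blocks, and the levels, shares, profiles and motifs were not. Named genes were the 9 IGF genes, the pathway genes past the threshold (1 of which is counted but not reported here), and for each IGF gene the 3 with the highest r. The members, the gene lists and the tests were chosen with earlier results of these data known.

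By the study's methods the ONH and ONP tissue came from the same mice. That ONH and ONP libraries of 1 number at 30 days share a pool was inferred from their numbers. The deviations of same-numbered ONH and ONP libraries from their group means had correlations of 0.077 to 0.471, against a median of -0.087 for other numbers. Counting error only is covered by the limit of 3 counts.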

Additional observations from a re-analysis of the deposited data

Results flagged for a closer look

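Among 36 groups of libraries (9 genes in 4 groups), 4 had a library whose gap to its nearest neighbour, as a share of the group's range, was above the 95% critical value of Dixon's test. Chance gives about 1 in 20 groups for normally distributed values, while these were untransformed CPM and the groups shared libraries. Flagged for Igf1 was pool 7 at 30 days, in the ONH at 121 CPM against 12 in the next library (0.902 of the range). In the ONP it was at 107 CPM against 13.2 (0.878). ONH library 5 at 7 days was flagged too, at 7.98 CPM against 2.75 (0.941). For Igf1r it was ONH library 5 at 7 days, at 45.2 CPM against 20.9 (0.874).

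The change of Igfbp4 from 7 to 30 days differed between the regions, by the interaction term of edgeR, with a log2FC of 2.80 (ONP minus ONH). It missed the threshold in 14 of 32 other settings.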

How the results depend on the processing

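The 4 IGF genes higher in the ONH at 30 days and the 2 at 7 days passed in every alternative run for these comparisons. Without single libraries the number of IGF genes past the threshold was 0 to 3 in the ONP from 7 to 30 days and 0 to 1 for the difference between regions in that change. In the other 3 comparisons it stayed at 0, 4 and 2. In the ONP from 7 to 30 days 1 passed with scaling by library size only, 1 with no filter beyond 1 count, 1 without pool 7, and 0 with all 4 groups in one fit. For the difference between regions 0 passed with limma-voom, 0 with limma on the log2 values and 0 without ONH libraries 5 and 6 at 7 days. DESeq2 called 2 IGF genes and 1 pathway gene in the ONH from 7 to 30 days, and 9 pathway genes between regions at 7 days. These counts stand without the share of all genes that DESeq2 called, so no result about these genes is drawn from them. Causes were not tested.

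Directions turned only where no call had been made. Without ONH libraries 5 and 6 at 7 days, log2FC was 0.75 (Igf2) and 0.22 (Igfbp2) in the ONH over time, -0.72 (Igf2), -0.38 (Igf1r) and -0.18 (Igfbp2) between regions at 7 days, and -0.73 (Igf2), -0.66 (Igfbp6) and -0.13 (Igfbp7) for the difference between regions. With limma-voom it was 0.12 for Igf2 in the ONH and -0.13 in the ONP over time, -0.07 for Igf1r at 7 days and -0.25 for Igf2 in the difference between regions, and with limma on the log2 values -0.13 for Igf2 in the ONP. For Igf2 between regions at 30 days it was -0.01 with no filter and -0.24 without pool 7. Without single libraries, log2FC over time ran from -0.67 to 0.46 (Igf2), -0.10 to 0.46 (Igf1r) and -0.08 to 0.19 (Igfbp5) in the ONH, and from -0.26 to 0.47 (Igf2) and -1.18 to 0.06 (Igfbp3) in the ONP. Between regions it ran from -2.19 to 2.47 (Igf1) and -0.16 to 0.19 (Igf2) at 30 days, and from -0.42 to 0.82 (Igf2), -0.32 to 0.36 (Igf1r) and -0.10 to 1.58 (Igfbp3) at 7 days. The difference between regions ran from -0.97 to 3.66 (Igf1), -0.44 to 0.85 (Igf2), -0.77 to 0.89 (Igfbp6) and -0.01 to 1.32 (Igfbp7).

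With the replicate block of the pool at 30 days, 5 IGF genes passed, Igfbp7 in addition to the other 4, and 14 pathway genes. By duplicateCorrelation as the replicate block, 0 IGF genes passed for the difference between regions, with Igfbp4 at 2.29 (adjusted p = 0.128) and Igf2 at -0.15. Between 30 and 7 days the mice differ, so these comparisons hold no pairs. Between the regions at 7 days no paired fit was made. The numbers 1, 5 and 6 occur there in both regions, but the columns could not be tied to numbered samples. Scaling by library size only moved the median log2FC of all genes by 0.114 in the ONP over time, 0.113 between regions at 7 days and 0.152 for the difference between regions.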
